A study of Mus musculus with 12 samples.

Results

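Oxidative phosphorylation is the step of respiration in which mitochondria turn the energy of nutrients into ATP, and the genes described here are the nuclear genes that encode its protein subunits. They were taken by symbol from the deposited tables: names beginning with Ndufa, Ndufb, Ndufc, Ndufs or Ndufv (complex I), Sdha to Sdhd (complex II), Uqcr (complex III), Cox4 to Cox8 (complex IV) or Atp5 (complex V, the ATP synthase), leaving out pseudogenes and the Ndufaf assembly factors. The rule found 78 of 37620 genes in the count files. They are 7 core and 30 accessory subunits of complex I, 4 genes of complex II, 8 of complex III, 12 of complex IV and 17 of complex V. Every one of the 78 passed the filter on low counts and was tested in each comparison.

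Complexes I and II pass electrons from NADH and succinate to coenzyme Q, complex III passes them on to cytochrome c, and complex IV hands them to oxygen. Complexes I, III and IV pump protons across the inner mitochondrial membrane, and complex V uses the returning protons to make ATP. Most subunits are made from nuclear genes and imported, while a small set is encoded by mitochondrial DNA, so each complex except complex II is assembled from products of both genomes. Dividing neural stem cells rely heavily on glycolysis, and oxidative phosphorylation is known to gain weight as they become neurons.

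Strand-specific sequencing of mRNA gave the levels of these genes in cultured neural stem cells. The cells came from E14.5 mouse embryos on the C57BL/6J background and were kept dividing in medium holding 20 ng/ml each of FGF-2 and EGF, their growth factors. The 4 groups were E12-/- cells (E12KO), E47-/- cells (E47KO) and wild-type cells from litter mates of each line, E12+/+ (E12wt) and E47+/+ (E47wt), with 3 libraries a group and no other treatment. The gene Tcf3 yields both E12 and E47 by alternative splicing; they are transcription factors of the E protein family with a basic helix-loop-helix domain. The labels do not say how either form was removed. Counts per gene cannot separate the 2 forms. Tcf3 itself was at 72.9 to 101 CPM (read counts scaled to library size) in E12KO and 106 to 117 CPM in E47KO, so its count checks no label.

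The 12 libraries held 34515297 to 56835783 reads on genes, of which the 78 genes took 1.11 to 1.31%. Markers of neural stem cells summed to 9560 to 11400 CPM in every group, with Fabp7 and Ptprz1 the most abundant, while neuron markers summed to 1110 to 1450 CPM and erythroid markers to at most 0.45 CPM. Library E47KO replicate 2 stood apart: it held the highest of the 12 values for 29.0% of all genes and the lowest for 30.1%. Xist, the X inactivation transcript, was at 1010 to 1510 CPM in the E12 libraries and at 891 and 1110 CPM in E47wt replicates 1 and 3, but at 0.839 CPM in E47wt replicate 2 and at most 0.788 CPM in E47KO. The labels do not state if replicate libraries are from different embryos or cultures, so a p-value measures only the spread between these libraries, which may be technical.

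Promoters of respiratory chain genes are known for sites of the nuclear respiratory factors NRF1 and GABP, an ETS family factor, and of YY1. E proteins bind the E box CANNTG, the usual forms being CAGCTG and CAGGTG. RefSeq windows on GRCm38.p6, from 250 bases before to 50 bases after the transcript start, were at hand for 67 of the 78 genes. To show what these motifs look like at their places in each complex, the following stretches are given 5′ to 3′ on the gene's strand, with the matched motif in capitals, from the core and accessory arms of complex I (Ndufs3 and Ndufb5), complex II (Sdha), complex III (Uqcrh), complex IV (Cox6b1) and complex V (Atp5c1). All of them lie before the start.
Ndufs3, ETS motif, minus strand, chr2:90904727-90904763: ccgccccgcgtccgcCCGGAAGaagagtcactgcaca
Ndufb5, YY1 motif, plus strand, chr3:32736823-32736860: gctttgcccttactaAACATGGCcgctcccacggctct
Sdha, NRF1 motif at 2 places, minus strand, chr13:74350271-74350353: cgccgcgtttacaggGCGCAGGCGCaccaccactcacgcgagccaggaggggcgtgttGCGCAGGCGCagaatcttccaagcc
Uqcrh, ETS motif on the opposite strand, minus strand, chr4:116075071-116075095: gaggagtatgccgcaCTTCCGGcca
Cox6b1, ETS motif on the opposite strand, minus strand, chr7:30626121-30626157: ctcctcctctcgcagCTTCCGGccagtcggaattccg
Atp5c1, NRF1 motif, minus strand, chr2:10080433-10080464: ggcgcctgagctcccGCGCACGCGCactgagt

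The NRF1 motif, searched on both strands as the letters in capitals for Sdha with any base between the A and the second GCGC, stood in the windows of 17 of the 67 genes (25.4%), against 11% of the windows of the 10691 tested genes that have one and 5.2% of 27025 genes in all. The 17 lay in every part of the chain but the complex I core, among them Ndufa8, Ndufs6, Sdha, Sdhd, Uqcrc1, Cox6a1, Atp5c1, Atp5g2 and Atp5g3. The ETS motif CCGGAAG stood in 16 (23.9%, against 18.7% of tested genes) and the YY1 motif AANATGGC in 18 (26.9%, against 9.8%). At least 1 of the 3 stood in 44 of the 67, against 33.6% of tested genes. The windows also differed in base composition, with a median of 58.3% G and C against 52.7% over all windows, and that part in the shares was not tested.

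E boxes, which E12 and E47 can bind, were counted in the same windows. CANNTG of any kind stood in 47 of the 67 windows (70.1%, against 67.4% of tested genes), and CAGGTG in 14 (20.9%, against 20.9%). CAGCTG stood in 5 (7.5%, against 18.1%), those of Ndufv2, Ndufa8, Ndufb10, Ndufs5 and Atp5b. A match describes letters in a window and does not show binding. The 250 bases before the start are shown for the ATP synthase genes Atp5g3 and Atp5d, which have the lowest p of the 78 genes in the E12 and the E47 comparison below, with each E box in capitals (CACCTG is CAGGTG read from the opposite strand). The stretch of Atp5d belongs to the upstream of its 2 windows. Neither stretch holds the ETS or YY1 letters, and the NRF1 match of Atp5g3 lies past the start, beginning at base 13 of the transcript, outside the bases shown.
Atp5g3, minus strand, chr2:73911327-73911576: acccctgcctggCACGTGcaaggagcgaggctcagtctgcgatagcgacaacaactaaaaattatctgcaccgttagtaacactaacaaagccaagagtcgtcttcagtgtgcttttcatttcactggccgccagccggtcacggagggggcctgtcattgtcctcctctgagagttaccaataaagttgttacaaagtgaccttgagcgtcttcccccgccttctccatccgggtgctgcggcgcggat
Atp5d, plus strand, chr10:80142025-80142274: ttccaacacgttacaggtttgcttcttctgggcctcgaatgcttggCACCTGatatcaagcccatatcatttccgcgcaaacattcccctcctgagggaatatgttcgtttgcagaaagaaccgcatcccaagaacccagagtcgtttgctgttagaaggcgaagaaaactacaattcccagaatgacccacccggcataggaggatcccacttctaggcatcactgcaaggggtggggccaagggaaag

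Levels between genes were compared as CPM per kilobase of transcript, averaged over the 12 libraries. The catalytic head of the ATP synthase led: Atp5b, its catalytic beta subunit, was at 956 and Atp5a1, the alpha subunit, at 553. Next came Atp5g3, which encodes the c subunit of the rotor ring, at 493, then Uqcrh, the hinge protein of complex III, at 406, and Cox4i1, the ubiquitous isoform of subunit 4 of complex IV, at 393. Ndufa4, first assigned to complex I and later placed in complex IV, was at 356. The other accessory subunits of complex I reached at most 199 (Ndufc2).

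The complex I core subunits were lower. Ndufs3 stood at 95.9, Ndufv2 and Ndufv1 of the NADH-binding module at 85.5 and 64.1, and the largest iron-sulfur subunit, Ndufs1, at 75.8. Ndufs8 and Ndufs7, which carry iron-sulfur clusters near the quinone site, were at 59.8 and 34.8. In complex II the flavoprotein Sdha was at 147 and the membrane anchor Sdhd at 131, above the iron-sulfur subunit Sdhb at 97.4 and the other anchor, Sdhc, at 54.6. At the low end were Cox6b2 at 12.3, Atp5s at 4.85 and Atp5sl at 3.34 CPM per kilobase. Atp5s and Atp5sl match the rule by symbol but are not subunits of the ATP synthase: Atp5sl is now named Dmac2, an assembly factor of complex I.

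**Figure D1:**
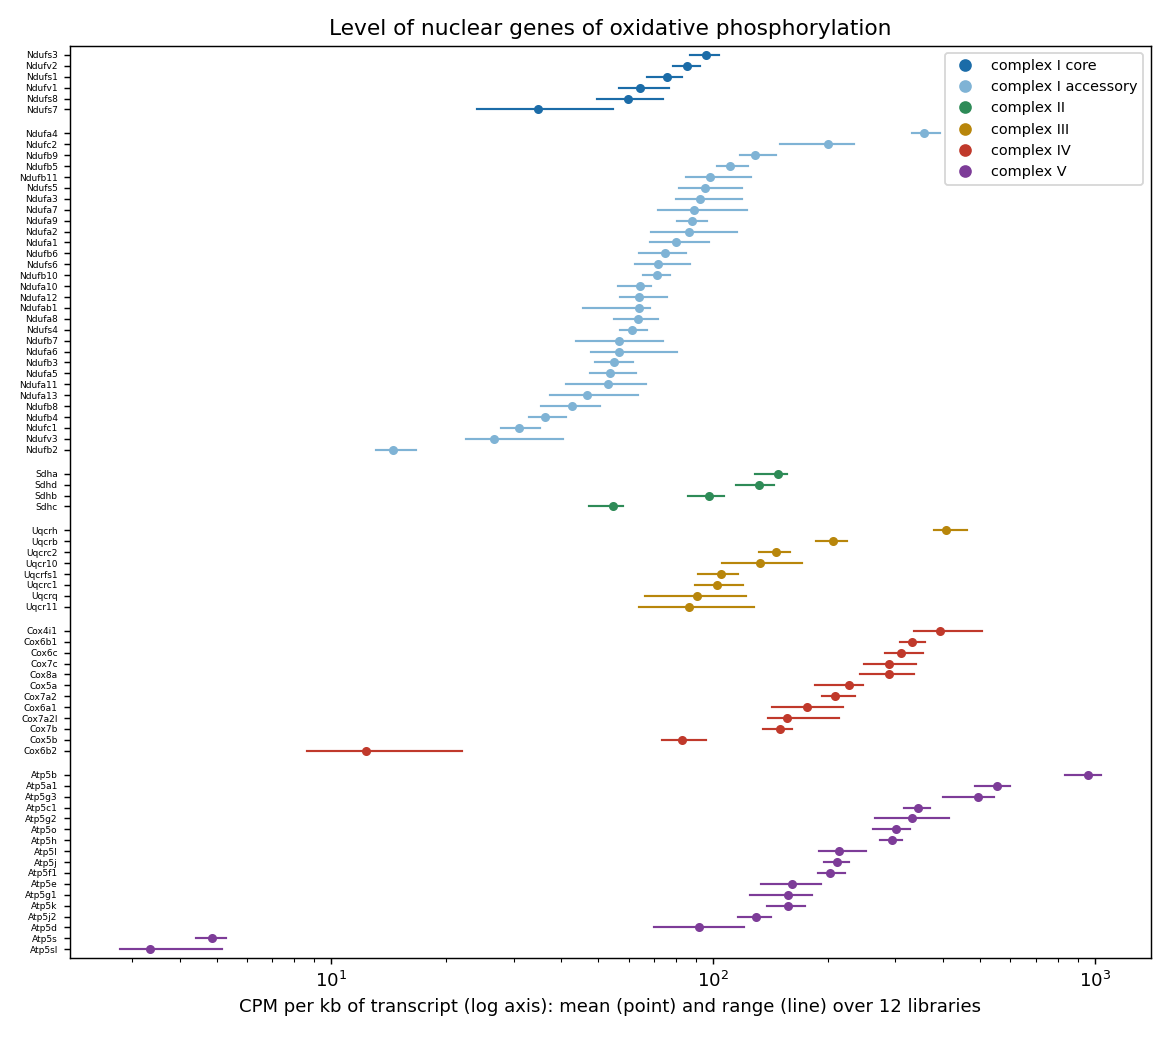
Level of each gene, except 1 that is not shown, in CPM per kilobase of transcript on a log axis, grouped by complex; the point is the mean and the line the range over all 12 libraries. Atp5b is highest at 956, and Atp5s and Atp5sl stand alone below all true subunits at 4.85 and 3.34.

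Several subunits exist as paralogues of different tissues, and in these cells the forms named below for other tissues or for hypoxia held few reads. The genes of the c subunit and Cox7a2l, in the Cox7a set by symbol, did not follow this. Cox7a2l was at 167 CPM beside 138 CPM for Cox7a2. The muscle forms Cox6a2 and Cox7a1 had 148 and 140 reads over all 12 libraries together (0.431 and 0.701 CPM per kilobase), while the ubiquitous forms Cox6a1 and Cox7a2 were at 176 and 209 CPM per kilobase. The lung form Cox4i2 had 25 reads in all, and Ndufa4l2, the hypoxia-induced relative of Ndufa4, had 70. Cox8b, a heart and muscle form, had 31 reads, and Cox8c, a testis form, had 0, which by the limit of 3 reads allows up to 0.0528 to 0.0869 CPM in a library, while Cox8a was at 288 CPM per kilobase. The testis form Cox6b2 had the highest level of these alternatives, at 12.3 CPM per kilobase beside 331 for Cox6b1. All 3 genes of the c subunit, which yield the same mature protein, were expressed, at 493 (Atp5g3), 330 (Atp5g2) and 157 (Atp5g1) CPM per kilobase.

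Reads that map to several places were not counted, which lowers genes with near-identical copies. For 67 of the 78 genes no run of 50 bases of the transcript recurred on the same strand in another annotated gene. The share was highest for Atp5g2, where 100% of such runs recur in the pseudogenes Gm10175 and Gm10231, followed by Atp5l with 52.9%, Ndufb4 with 37.0% and Cox7c with 29.1%. The levels of these 4 genes are uncertain.

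By the median, the 78 genes varied less between replicates than the genes in their range of levels. The median standard deviation within a group was 0.112 on the scale of log2(CPM + 0.5), against 0.163 for the 10293 genes in the same range of levels. Levels were not matched within that range, and the part of level in this gap was not tested. It was lowest for Ndufa4 (0.0415) and highest for Cox6b2 (0.273). The highest library was less than 1.5 times the lowest for 59 of the 78 genes, and the ratio ran from 1.14 (Atp5h) to 2.52 (Cox6b2).

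What variation there was ran through all complexes together in most libraries. Relative to each gene's mean over the 12 libraries, the median gene lay at −0.08, −0.04 and −0.15 (log2) in E12wt replicates 1 to 3, at 0.00, −0.10 and 0.08 in E12KO, at 0.11, 0.01 and −0.05 in E47wt, and at 0.11, 0.10 and −0.02 in E47KO, while the median over all genes was within 0.01 of 0 in each. E12wt replicate 3 was the lowest of the 12 libraries for 31 of the 78 genes, against 10.7% of all genes tested, and E12KO replicate 2 for 23, against 10.5%. E47wt replicate 1 was the highest for 21, against 5.9%. E47KO replicate 2 was the highest for 30, against 29.0%, but also the lowest for 8, against 30.1%, so there the genes did not all move the same way. The libraries of each group overlapped those of the others in this median, except that every E12wt library lay below every E47KO library.

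**Figure D2:**
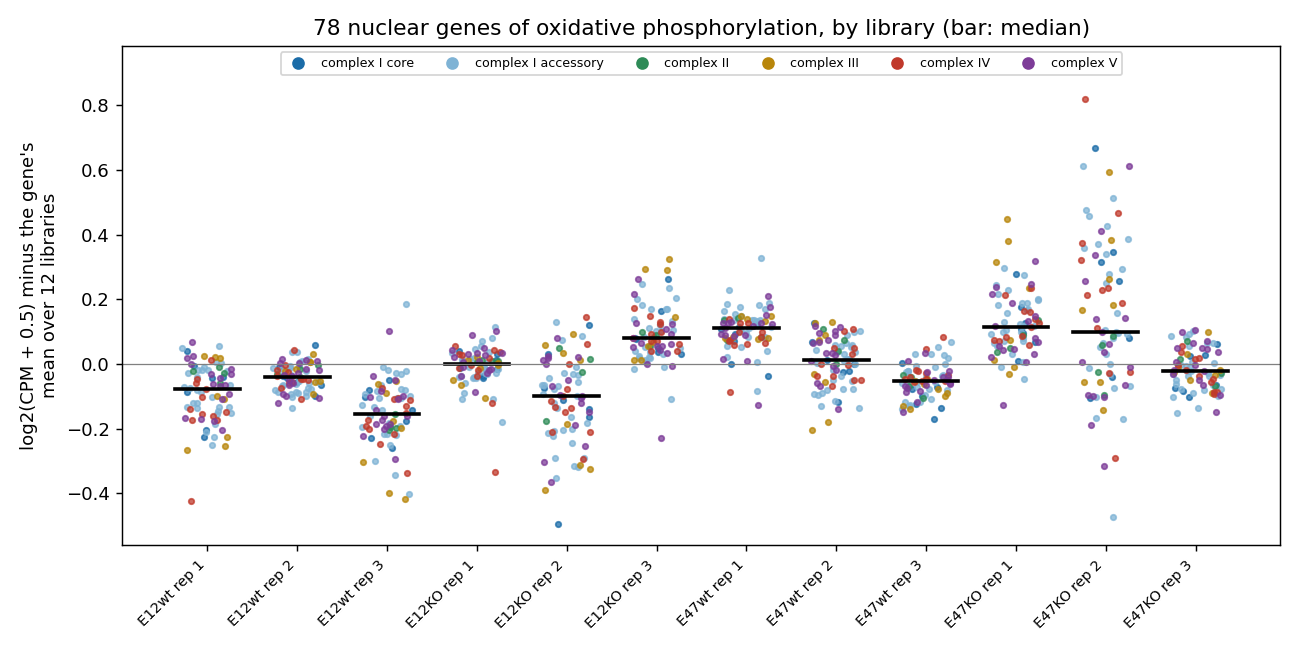
Each point is 1 of the 78 genes in 1 library, as log2(CPM + 0.5) minus that gene's mean over 12 libraries, coloured by complex; the bar is the median. The medians run from −0.15 in E12wt replicate 3 to 0.11 in E47wt replicate 1 and E47KO replicate 1, and the points are spread most widely in E47KO replicate 2.

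In some libraries the 78 genes were spread along the base composition of their transcripts, and in others they were not. Across the 78 genes, Pearson's r between this difference from the mean and the percentage of G and C in the transcript was −0.59, −0.30 and −0.49 in E12wt replicates 1 to 3, and 0.55, 0.55 and 0.38 in E47KO. It was 0.04, −0.61 and 0.36 in E12KO, and −0.09, −0.63 and 0.12 in E47wt. These are correlations across genes that share a library, given as a description. In E47KO replicate 2, the 39 genes richer in G and C had a median of 0.26 and the other 39 of 0.00. Over 14772 tested genes the r was −0.24, −0.15 and −0.07 in E12wt replicates 1 to 3, and 0.30, 0.27 and −0.02 in E47KO. In the same order it was 0.06, −0.45 and 0.11 in E12KO, and −0.02, −0.25 and 0.00 in E47wt.

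Loss of E12 was read from E12KO against E12wt. No subunit gene was called, but most lay slightly higher in the knockout: 72 of 78 had a log2 fold change above 0, against 51.4% of all genes tested, with a median of 0.09 against 0.00. Their summed level was 12100, 11700 and 12900 CPM in the E12KO libraries and 11600, 11800 and 10800 CPM in E12wt, so the groups overlapped. All members of the complex I core (7), complex II (4), complex III (8) and complex IV (12) lay above 0, as did 26 of the 30 accessory subunits of complex I and 15 of 17 in complex V. In every comparison these 17 include Atp5s and Atp5sl, which are not subunits of the ATP synthase. Atp5sl was the lowest of the 17 here, at −0.13. The medians by complex ran from 0.07 for the complex I core to 0.11 for complex II.

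By edgeR's quasi-likelihood test no member passed a Benjamini-Hochberg adjusted p of 0.05, against 0.0407% of all genes tested, and DESeq2 called none either. At an unadjusted p under 0.05, 2 of the 78 genes (2.56%) were higher, against 4.29% of all genes, and 0 were lower, against 4.67%; both shares were below the background. All 3 E12KO libraries lay above all 3 E12wt libraries for 12 genes (15.4%, against 6.47%), and below them for 0 (against 7.17%). The 12 were Ndufv2, Ndufa4, Ndufc2, Ndufs4, Ndufb4, Sdha, Sdhd, Cox5a, Atp5b, Atp5c1, Atp5g3 and Atp5o. Single libraries moved these values. Leaving out E12KO replicate 2 raised the median fold change to 0.125 and the number at an unadjusted p under 0.05 to 26. Of all genes tested, 820 of 15026 were then higher at that p, against 633 of 14755 with all libraries. Leaving out replicate 3 of E12KO gave a median of 0.051, and leaving out replicate 3 of E12wt gave 0.055, each with 1 gene at that p. The number was also 1 when replicate 1 of E12wt was dropped, and 5 when replicate 2 of E12wt was. In the same order, 286 of 14959, 473 of 14975, 425 of 14983 and 1078 of 15023 of all genes tested were then higher at that p.

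The lowest p belonged to Atp5g3. It was at 363, 371 and 383 CPM in E12KO and at 329, 335 and 286 CPM in E12wt, so the groups did not overlap, with a log2 fold change of 0.24 ± 0.07 (SE; edgeR quasi-likelihood, adjusted p = 0.515). The other genes of the same protein, Atp5g1 and Atp5g2, were at 0.18 ± 0.09 and 0.11 ± 0.10 with overlapping groups.

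Ndufc2, an accessory subunit of the complex I membrane arm, was at 131, 129 and 159 CPM in E12KO and at 123, 129 and 102 CPM in E12wt. Its groups did not overlap but nearly touched, replicate 2 of each being at 129 CPM when rounded, and the log2 fold change was 0.25 ± 0.11 (edgeR quasi-likelihood, adjusted p = 0.547). In complex V, Atp5b was at 1870, 1850 and 1990 CPM against 1770, 1790 and 1620 CPM, a log2 fold change of 0.15 ± 0.07. In complex II, Sdha was at 430, 442 and 444 CPM against 410, 418 and 372 CPM, at 0.14 ± 0.06. For all 4 genes E12wt replicate 3 was the lowest of the 6 libraries.

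Other leading members had overlapping groups. The highest fold change was that of the sparse Cox6b2, at 4.31, 6.20 and 6.22 CPM against 4.02, 5.26 and 4.30 CPM (0.31 ± 0.19). In complex III, Uqcrq, a small subunit known as the ubiquinone-binding protein, was at 0.24 ± 0.16 and the core protein Uqcrc2 at 0.04 ± 0.06. In complex I, Ndufs8 was at 0.20 ± 0.09. On the negative side, Ndufa1, a small X-linked subunit needed for complex I assembly, was at −0.08 ± 0.08 and Atp5sl at −0.13 ± 0.12.

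**Figure D3:**
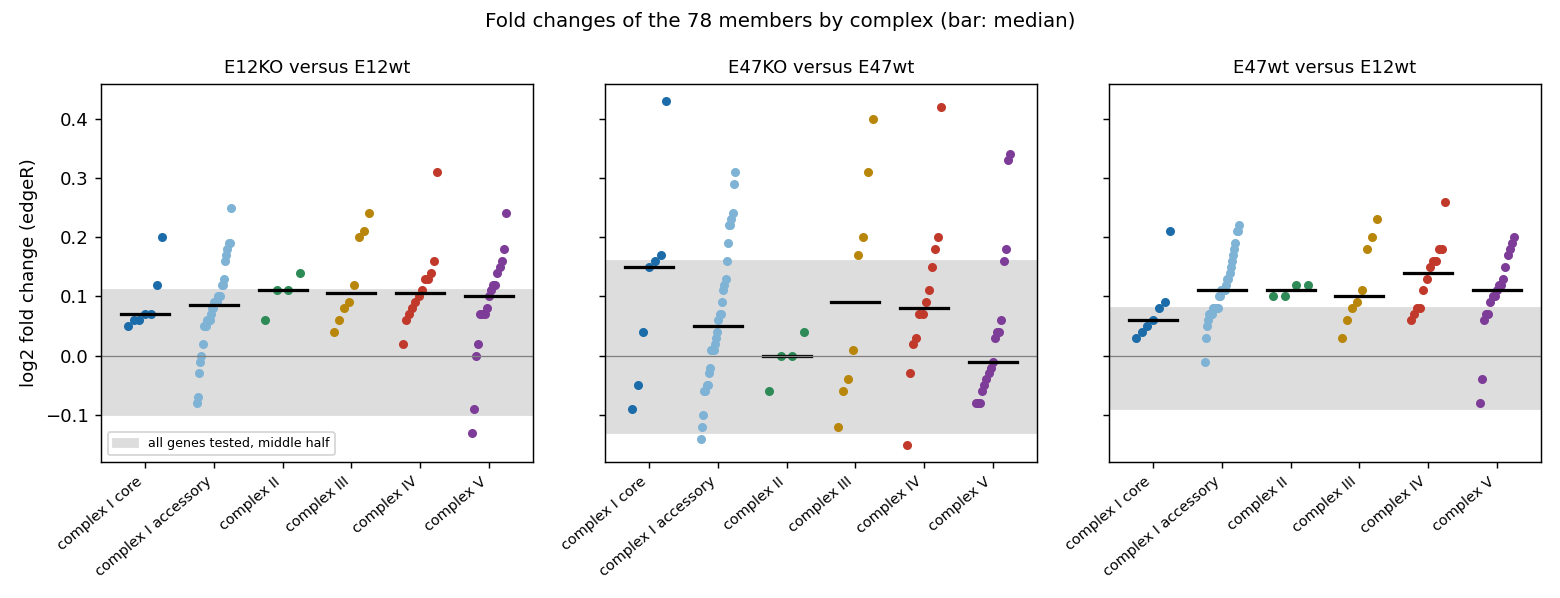
Log2 fold change (edgeR) of each of the 78 genes by complex in the comparison of each knockout with its wild type and of the wild types with each other; black bars are medians and the grey band spans the quartiles of all genes tested. With E12 lost and between the wild types nearly all points lie above 0 (72 and 75 of 78), while with E47 lost 51 do.

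Loss of E47 was read from E47KO against E47wt, and no subunit gene was called. Xist was at most 0.788 CPM in E47KO but at 891 and 1110 CPM in E47wt replicates 1 and 3. Only E47wt replicate 2 was a wild-type library with almost no Xist, so loss of E47 and this difference can hardly be told apart. With Xist as a covariate, which rests on that library, the median fold change of the members was 0.053. Of the 78 genes 51 had a log2 fold change above 0, against 49% of all genes tested, with a median of 0.04 against −0.01. The complex I core had 5 of 7 above 0 and a median of 0.15, complex IV 10 of 12 and 0.08, complex III 5 of 8 and 0.09, complex I accessory subunits 21 of 30 and 0.05, complex II 2 of 4 and 0.00, and complex V 8 of 17 and −0.01. The highest of those 17 was Atp5sl, which is not a subunit, at 0.34. The summed level was 13000, 12500 and 12100 CPM in E47KO and 13000, 12400 and 11600 CPM in E47wt, which overlap almost wholly.

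By edgeR's quasi-likelihood test and by DESeq2 no member was called, against 0.0134% of all genes tested by edgeR, and the lowest adjusted p was 0.971. At an unadjusted p under 0.05, 3 genes (3.85%, against 1.13%) were higher and 0 lower (against 1.06%). That count was 1 with the replicate number as a block, 9 without E47KO replicate 3, 1 without E47KO replicate 2 or E47wt replicate 1, and 0 without E47KO replicate 1, E47wt replicate 2 or E47wt replicate 3. The number over all genes tested moved too, from 169 of 14965 to 224 of 14965 with the block and 980 of 15135 without E47KO replicate 3. In the order of the other libraries named, it was 214 of 15253, 78 of 15338, 163 of 15297, 54 of 15135 and 182 of 15109. The groups did not overlap for 4 genes that were higher (5.13%, against 4.02%), namely Ndufv1, Ndufs7, Cox6b2 and Atp5d, and for 0 that were lower (against 3.88%). The median of the 78 was 0.014 without E47wt replicate 3, 0.025 without E47KO replicate 1, 0.024 without E47KO replicate 2, 0.084 without E47wt replicate 1 and 0.101 without E47KO replicate 3.

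The 3 genes with the lowest p lay in 3 different complexes. Atp5d, the delta subunit of the central stalk of the ATP synthase, was at 105, 112 and 88.0 CPM in E47KO and at 84.6, 76.4 and 81.3 CPM in E47wt, a log2 fold change of 0.33 ± 0.12 (edgeR quasi-likelihood, adjusted p = 0.971). Ndufs7, an iron-sulfur subunit of the complex I core, was at 31.5, 41.4 and 26.4 CPM against 25.2, 23.8 and 24.5 CPM, at 0.43 ± 0.18. Uqcr11, the smallest subunit of complex III, was at 46.9, 57 and 40.3 CPM against 41.3, 32.6 and 35.6 CPM, at 0.40 ± 0.17, and both had the same adjusted p as Atp5d.

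In each of the 3, E47KO replicate 2 was the highest of the 6 libraries, and without it the log2 fold changes were 0.25 (Atp5d), 0.24 (Ndufs7) and 0.26 (Uqcr11). Cox6b2 rested on that library more: it was at 5.94, 10.2 and 5.80 CPM against 5.20, 5.77 and 5.34 CPM, and its log2 fold change of 0.42 ± 0.26 was 0.11 without it. The same library was the lowest of all 12 for Cox5a, a subunit of complex IV (119 CPM, against 133 to 159 CPM in all others), and for Ndufab1, the mitochondrial acyl carrier protein that is also part of complex I (64.6 CPM, against 82.0 to 96.7 CPM in all others). Cox5a was at −0.15 ± 0.12 and Ndufab1 at −0.14 ± 0.16, and Ndufab1 was at 0.02 without that library.

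These fold changes lined up with base composition. Of the 39 members richer in G and C, 35 lay above 0 after loss of E47, with a median of 0.16, and of the other 39, 16 did, with a median of −0.03. The transcripts of Atp5d, Ndufs7 and Uqcr11 hold 61.1, 60.7 and 58.9% G and C, against a median of 51.8% over the 78 genes. All genes tested split the same way at that median: 71.2% of those above it and 32.7% of those below it were higher in E47KO, with medians of 0.12 and −0.07. After loss of E12 these sets of 39 genes were alike, at 0.10 and 0.08. The part of base composition in the E47 values was not tested.

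**Figure D4:**
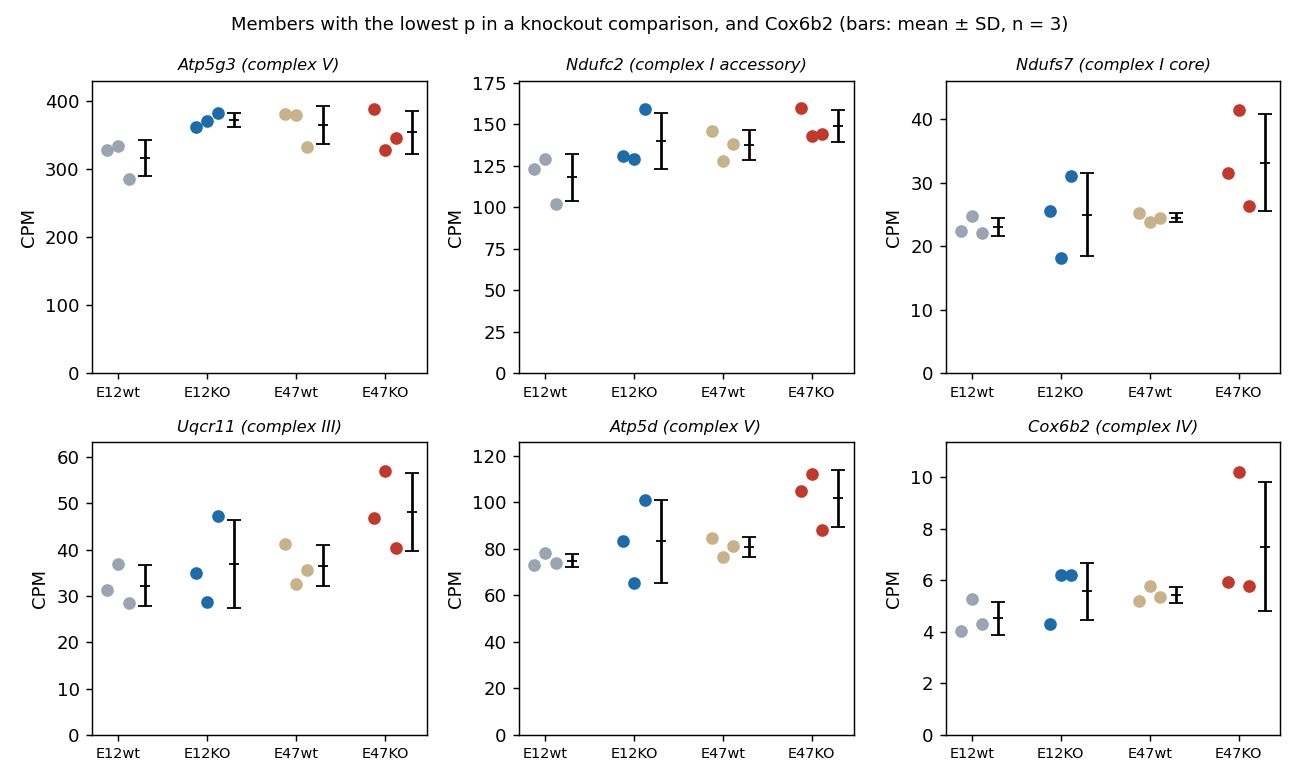
CPM of 6 subunit genes in each library (points, in replicate order) with the mean ± SD of the 3 libraries of a group; axes start at 0. Atp5g3 is higher in all 3 E12KO than in all 3 E12wt libraries (363 to 383 against 286 to 335 CPM), and E47KO replicate 2 is the high point of Ndufs7, Uqcr11, Atp5d and Cox6b2.

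The wild types of the lines, E47wt and E12wt, carry no deletion of Tcf3 forms. They differ in line and litter, and E47wt replicate 2 has almost no Xist, and what these bring to the difference cannot be told apart. This comparison shares E12wt with the E12 comparison and E47wt with the E47 comparison, so its values are set beside theirs and not counted as separate evidence. The difference was as large as that after loss of E12: 75 of 78 genes were above 0 in E47wt, against 48.5% of all genes, with a median of 0.11 against 0.00. By complex the median was 0.14 for complex IV, 0.11 for complexes II and V and the accessory subunits of complex I, 0.10 for complex III and 0.06 for the complex I core.

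None was called by edgeR's quasi-likelihood test (0% of all genes tested were) or by DESeq2. At an unadjusted p under 0.05, 11 genes (14.1%, against 2.05%) were higher and 0 lower (against 1.77%), and for 18 (23.1%, against 5.08%) all E47wt libraries lay above all E12wt libraries, with 0 the other way (against 4.44%). The 11 included the following. Ndufa4 was at 239, 225 and 222 CPM in E47wt and 206, 206 and 202 CPM in E12wt (0.16 ± 0.05, edgeR quasi-likelihood, adjusted p = 1.0). Ndufs8 was at 61.3, 57.5 and 58.5 CPM against 49.8, 54.5 and 48.7 CPM (0.21 ± 0.07). Cox8a, a small subunit of complex IV, was at 166, 158 and 163 CPM against 140, 155 and 133 CPM (0.18 ± 0.07).

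For these 3 genes the wild types did not overlap, and their fold changes after loss of E12 were 0.09, 0.20 and 0.16. The other 8 were Ndufb6, Ndufc2, Uqcr10, Cox7c, Cox6a1, Atp5g2, Atp5g3 and Atp5k. Leaving out E12wt replicate 1, E12wt replicate 3 or E47wt replicate 1 brought the 11 to 0, leaving out E47wt replicate 3 brought it to 25, and fitting all 12 libraries together gave 3. In the same order, 219 of 15052, 251 of 15200, 265 of 15204, 343 of 15027 and 299 of 15277 of all genes tested were higher at that p.

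Set side by side, Atp5g3 was at 317 ± 27.1 CPM in E12wt, 372 ± 10.2 CPM in E12KO, 365 ± 27.5 CPM in E47wt and 354 ± 31.3 CPM in E47KO (SD, n = 3), so the group that was low among the 4 was E12wt.

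Whether the effect of losing E47 differed from that of losing E12 was tested as 1 term over all 12 libraries. By edgeR no member differed at an adjusted p of 0.05 (0% of all genes did) or at an unadjusted p under 0.05, against 1.2% of all genes higher and 1.83% lower; DESeq2 called none either. Of the 78 differences 32 were above 0, against 50.7%, and their median was −0.03. That median was 0.022 with library totals in place of TMM scaling.

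The subunits encoded by mitochondrial DNA, the partners of these genes in complexes I, III, IV and V, ordered the libraries differently. In the E12 line they summed to 22200, 26000 and 15400 CPM in the knockout libraries against 26900, 23000 and 20600 CPM in the wild type. In the E47 line the sums were 20800, 20900 and 15900 CPM against 19500, 19700 and 18700 CPM. E12KO replicate 3, in which 73 of the 78 nuclear genes were above their mean, had the lowest mitochondrial sum, and E12KO replicate 2, in which 18 were, the second highest. Both knockout groups overlapped their wild types. Between the wild types 12 of 12 tested mitochondrial genes were lower in E47wt, with a median of −0.35, while 75 of 78 nuclear genes were higher.

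Within that set, mt-Co1, the catalytic subunit of complex IV, was at 7250, 6950 and 7120 CPM in E47wt and 9480, 8080 and 8310 CPM in E12wt (−0.28 ± 0.07, edgeR quasi-likelihood, adjusted p = 1.0). Cytochrome b of complex III, mt-Cytb, was at −0.28 ± 0.10. For 6 of the 12 genes all E47wt libraries lay below all E12wt libraries (against 4.44% of all genes), namely mt-Co1, mt-Cytb, mt-Nd4, mt-Co2, mt-Co3 and mt-Atp6. After loss of E12, mt-Co1 was at −0.17 ± 0.17, and after loss of E47 at 0.03 ± 0.13. The genes mt-Co2, mt-Co3, mt-Atp6, mt-Nd3 and mt-Nd4l were listed at only 0.752 to 9.33 CPM, and 98 to 99.9% of their 50-base runs recur in annotated pseudogenes. Their counts thus say little about their level, and they include 3 of those 6. For mt-Nd4, also among the 6, 62.2% of these runs recur in the pseudogene Gm28439, so its level is uncertain too.

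**Figure D5:**
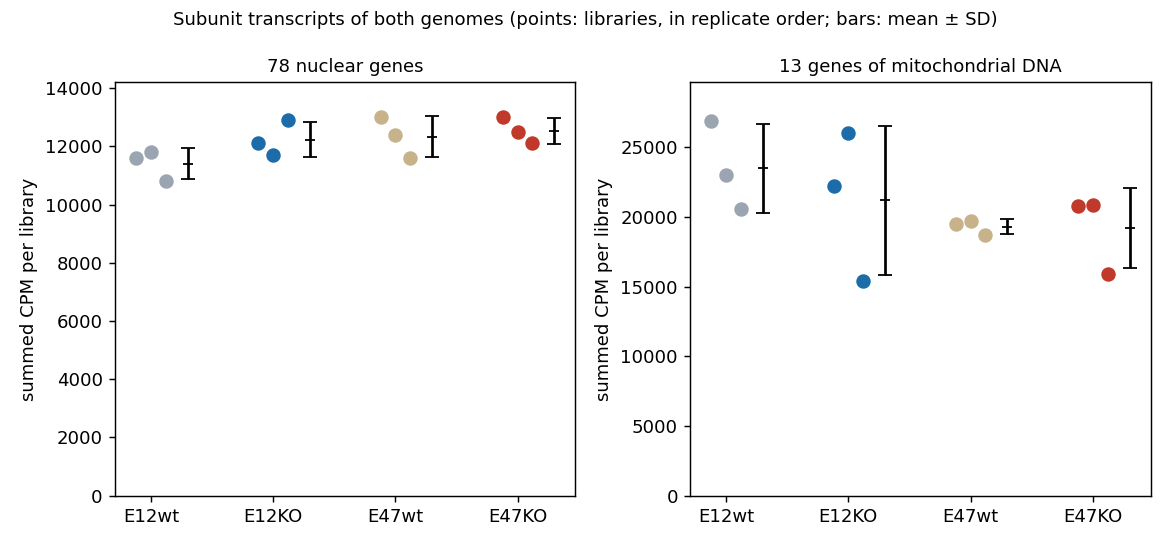
Summed CPM of the 78 nuclear subunit genes and of the 13 genes of mitochondrial DNA in each library (points, in replicate order), with mean ± SD of each group beside them; axes start at 0. The nuclear sums lie between 10800 and 13000 CPM and the mitochondrial ones between 15400 and 26900 CPM.

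Other genes of mitochondrial energy supply were looked at as lists. After loss of E12, 17 of 17 tested genes of pyruvate dehydrogenase and the citric acid cycle lay above 0 with a median of 0.12, among them citrate synthase (Cs, 0.12 ± 0.08). So did 61 of 76 genes of the mitochondrial ribosome, with a median of 0.06. Of all genes tested 51.4% lay above 0. Carriers and subunits outside the rule had 13 of 14 above 0 (median 0.08), led in level by the ADP/ATP exchangers Slc25a5 and Slc25a4, both at 0.08. Assembly factors were nearer to 0: complex I 9 of 13 (0.03), complexes II, III and V 7 of 13 (0.03), and complex IV 13 of 19 (0.05). Genes of coenzyme Q synthesis had 7 of 12 (0.01) and of glycolysis and lactate 7 of 18 (−0.05), with Pkm at 0.12 ± 0.08. Similar shifts stood between the wild types, a comparison that shares the E12wt libraries and so is not separate evidence. In E47wt against E12wt, 17 of 17 citric acid cycle genes lay above 0 (median 0.08), against 48.5% of all genes tested. The mitochondrial ribosome had 63 of 76 (0.06) and the carriers 13 of 14 (0.10). Coenzyme Q synthesis had 6 of 12 (0.00) and glycolysis 8 of 18 (−0.06). No gene of these lists was called in any comparison.

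After loss of E47 the citric acid cycle list had 5 of 17 above 0 (median −0.03), the mitochondrial ribosome 38 of 76 (0.00) and glycolysis 12 of 18 (0.10). Of all genes tested 49% lay above 0. The 16 regulators of mitochondrial biogenesis and mitochondrial DNA had 8 above 0 after loss of E12 (median 0.00) and 5 after loss of E47 (median −0.06). The highest of them after loss of E12, the coactivator Ppargc1a, was at 42.9, 57.7 and 51.7 CPM in E12KO and 39.0, 45.5 and 31.7 CPM in E12wt (0.40 ± 0.15, edgeR quasi-likelihood, adjusted p = 0.528), and its groups overlapped. Of the factors named with the promoter motifs, Nrf1 was at −0.02 ± 0.07, Gabpa, the DNA-binding part of GABP, at 0.03 ± 0.06, its partner Gabpb1 at −0.01 ± 0.06 and Yy1 at −0.01 ± 0.08 in that comparison. After loss of E47 they were at 0.01 ± 0.10, −0.05 ± 0.10, −0.14 ± 0.17 and −0.12 ± 0.15, and the groups overlapped for all 4.

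Of the 78 genes Ndufa1, Ndufb11 and Cox7b lie on the X chromosome. Ndufb11 was at 93.4, 114 and 84.8 CPM in E47KO and 97.7, 85.8 and 85.4 CPM in E47wt, and Cox7b at 158, 147 and 152 CPM against 158, 161 and 148 CPM, and E47wt replicate 2, the wild-type library with almost no Xist, was the highest of its group for Cox7b and in the middle for Ndufb11. In bulk RNA fewer cells of a type and less RNA per cell cannot be told apart. Mesenchymal and meningeal markers summed to 8.70 to 12.5 CPM in E12wt and 1.37 to 1.88 CPM in E12KO. After loss of E12, 5 of 5 tested were lower and 3 of them (Col1a1, Col1a2 and Bgn) were called, against 0.0407% of all genes tested. The sums were 1.53 to 16.9 CPM in E47wt and 2.24 to 3.34 CPM in E47KO. The sums of the other marker lists overlapped between E12KO and E12wt, but their genes did not all lie near 0. Neuron markers had 7 of 8 tested below 0 (median −0.38, with 3 at an unadjusted p under 0.05), oligodendrocyte lineage markers 7 of 7 (median −0.60, with 2 at that p), and astrocyte markers 5 of 7 above 0 (median 0.35, with 1). Of all genes tested, 4.67% were lower and 4.29% higher at that p. None of the neuron, oligodendrocyte lineage or astrocyte markers was called. After loss of E47, neuron markers had 7 of 8 tested below 0 (median −0.15) and endothelial markers 4 of 4 (median −0.23). Astrocyte markers had 5 of 7 above 0 (median 0.47) and oligodendrocyte lineage markers 4 of 7 (median 0.06). Of all genes tested 49% lay above 0 there. The part of these cell types in the values of the 78 genes was not tested.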

How the data were processed

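Strand-specific mRNA libraries, 12 in 4 groups of 3, were mapped with STAR 2.5 to mm9, per the submitters' processing notes. The deposited files hold whole read counts per gene in the layout of STAR's gene counts, per the file headers and values. The column of the strand opposite to the read (column 4) held 97.1273 to 97.2409% of strand-assigned reads and was used. Reads without a gene, 6.8695 to 8.9948% of each library, were left out. The authors' deposited tables of comparisons hold signal values, which equal counts over both strands after each library's were divided by a factor of its own, log2 fold changes, a test score (the statistic) and p-values (from DESeq2 or DESeq, per the submitters' processing notes); they served to find the members and were not tested again. In these authors' tables, 0 of the 78 genes had an adjusted p under 0.05 in either knockout comparison.

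Counts were tested in R 4.3.3 with edgeR 4.0.16 (filter on low counts by group, TMM scaling, quasi-likelihood F test, two-sided, prior count 0.125), with Benjamini-Hochberg adjustment over all genes and calls at an adjusted p under 0.05. DESeq2 1.42.0 was an alternative. CPM were scaled by TMM over all 12 libraries, log2 values used CPM + 0.5, and lengths and base composition came from GENCODE M21 transcripts (78 of 78 genes matched). Promoter windows came from RefSeq on GRCm38.p6 and no coordinates were carried over from mm9. Runs of 50 bases were compared with BLAST 2.17.0. The test was checked on simulated counts. A count of 0 allows up to 3 reads, which covers counting error only.

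The members, lists and tests were chosen with earlier results of these data known. Named members are, in each complex, the 2 with the highest mean CPM and those with the highest and lowest fold change in each knockout comparison, the paralogue sets, and X-linked genes; Atp5d, Ndufv1, Ndufb6, Uqcr10, Cox7c and Atp5k, and members named for groups that do not overlap, were chosen after their values were seen. Some genes that enter the counts and medians are not reported here by name. In the E47 line, deviations from the group means of same-numbered libraries correlated at 0.195, 0.260 and 0.524 over 15277 genes. That the numbers may pair these libraries comes from the data, not from the labels. The E47 values are from the fit without pairs except where a block is named, and the block was run only as an alternative. Alternatives were other scalings, no filter, both-strand counts, all 12 libraries in 1 fit, the replicate block, Xist (10 CPM or more) as a covariate in the E47 line, and leaving out each library.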

Additional observations from a re-analysis of the deposited data

How the results depend on the processing

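No member was called in any of the 4 comparisons under any alternative run (57 values), and the medians of the members moved by less than the spread between replicates (57 of 57), those of the difference between knockout effects running from −0.078 to 0.028 with a library left out. That bar was wide, as the SD of the libraries' medians within a group was 0.0581 to 0.0892, beside medians of 0.086 after loss of E12 and 0.038 after loss of E47. A median could change sign and still pass, as that of the difference did. All members lay far above the limit of a count of 0, and the part of depth in the results was not tested. The number of members higher at an unadjusted p under 0.05 after loss of E12 (2) was 1 with the replicate block and 1 to 26 with a library left out; after loss of E47 (3) it was 1 with the replicate block, 0 with the Xist covariate and 0 to 9 with a library left out; between wild types (11) it was 3 with all 12 libraries in the fit and 0 to 25 with a library left out. For the difference between knockout effects it was 0 to 1, the number lower 0 to 2, and the number above 0 (32) was 18 to 46 with a library left out. The number of all genes tested that were higher at that p moved as well with a library left out. It was 286 to 1078 after loss of E12, 54 to 980 after loss of E47, 219 to 567 between wild types and 116 to 1066 for the difference. In the E12 line same-numbered libraries correlated at 0.112, 0.084 and −0.054, and not every library correlated best with its own number. In the E47 line every library did, but the main fit took no pairs in either line. With the block no member was called either. Of all genes tested, 4 were then called after loss of E12, against 6 without it, and 2 after loss of E47 in both fits.

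Fold changes close to 0 changed sign. After loss of E12, Cox7a2l (0.016) was at −0.007 with library totals only and −0.041 to 0.047 with a library left out. Ndufb11 (0.004) was at −0.00015 with DESeq2 size factors, −0.00014 with the DESeq2 test, −0.019 with library totals only, −0.002 with no filter, −0.001 with all 12 libraries in the fit and −0.040 to 0.064 with a library left out. With a library left out Ndufs7 was at −0.066 to 0.300 and Uqcr11 at −0.012 to 0.351. After loss of E47, Atp5g1 (−0.010) was at 0.015 with library totals only, 0.030 with the Xist covariate and −0.123 to 0.134 with a library left out. Cox7a2 (0.015), Sdhc (0.003) and Uqcrh (0.009) were at −0.013, −0.043 and −0.043 with the Xist covariate, and at −0.034 to 0.050, −0.034 to 0.065 and −0.064 to 0.059 with a library left out; Sdhc was at −0.001 with no filter. Sdha (−0.00035) was at 0.008 with DESeq2 size factors or the DESeq2 test, 0.028 with library totals only, 0.00012 with counts of both strands and −0.023 to 0.026 with a library left out. Values with a library left out ran from −0.108 to 0.022 for Atp5b, −0.117 to 0.008 for Atp5g3, −0.031 to 0.175 for Ndufa1, −0.244 to 0.021 for Ndufab1 and −0.009 to 0.227 for Ndufb11. Between wild types they ran from −0.008 to 0.129 for Ndufa1, −0.015 to 0.133 for Ndufs1 and −0.023 to 0.114 for Uqcrc2. The causes were not tested. The named members' other 1397 values kept their sign, and none was called.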
